A study of Homo sapiens with 2 samples.

Results

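The change in gene expression between 3 h and 6 h of ROCK inhibition was measured as the difference between the log ratios of a pair of dual-colour arrays, taken as 6 h minus 3 h for each gene. A gene entered where its probes gave a value on both arrays, which held for 10469 of the 12445 genes named on the array. The cells were 293T, an established human embryonic kidney line grown in serum, and the treated cells received 10 µM Y27632. By its channel labels, each array compared treated cells in Cy3 with untreated 293T cells given a time of 0 h in Cy5. The sample titles instead pair the word control with each time and name no inhibitor, so treatment and time were taken from the Cy3 channel, and every ratio below rests on that reading. There was 1 array for 3 h and 1 for 6 h, with no dye swap, no vehicle group and no untreated cells kept for 3 h or 6 h, so no value below has a replicate and no p-value is given. A dye bias common to both arrays cancels in the difference, and so does the control RNA if both arrays used the same preparation, which the labels do not say. Time of treatment, time in culture and array cannot be told apart.

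Y27632 blocks ROCK1 and ROCK2, a pair of related protein kinases. ROCK phosphorylates the myosin phosphatase subunit and LIM kinases, and so promotes actomyosin contraction and stabilises actin filaments. Actin tension in turn is known to feed into transcription through SRF with its MRTF cofactors and through YAP and TAZ, and ROCK activity also contributes to the contractile ring that divides cells at the end of mitosis.

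The deposited values were log ratios, read as base 2, so that 1 unit is a 2-fold difference. Which channel is the numerator is not given in the sources used here, and each sign is therefore that of the deposited ratio. A positive difference means a higher level in treated cells at 6 h than at 3 h if treated cells are the numerator and a lower level if control cells are, and turning the sign leaves every size unchanged. In these bulk samples, fewer cells with a transcript and less of it per cell cannot be told apart. The table holds ratios and no spot brightness, so it does not show whether a marker of the cell line is present or absent. The median of all probes was 0 on each array.

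Most genes had nearly the same ratio at both times. The difference lay within 0.25 unit of 0 for 7877 genes (75.2%), its median was −0.01, and its SD over genes was 0.29 unit, a 1.22-fold difference. The central 95% of genes ran from −0.60 to 0.64. A difference of at least 1 unit was found for 126 of 10469 genes (1.2%), with 81 positive (0.774%) and 45 negative (0.43%). At 1.5-fold, 319 genes were positive (3.05%) and 283 negative (2.7%). Sign alone was nearly balanced, with 46.9% of all genes above 0, 51.2% below 0 and 1.89% at exactly 0.

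**Figure D1:**
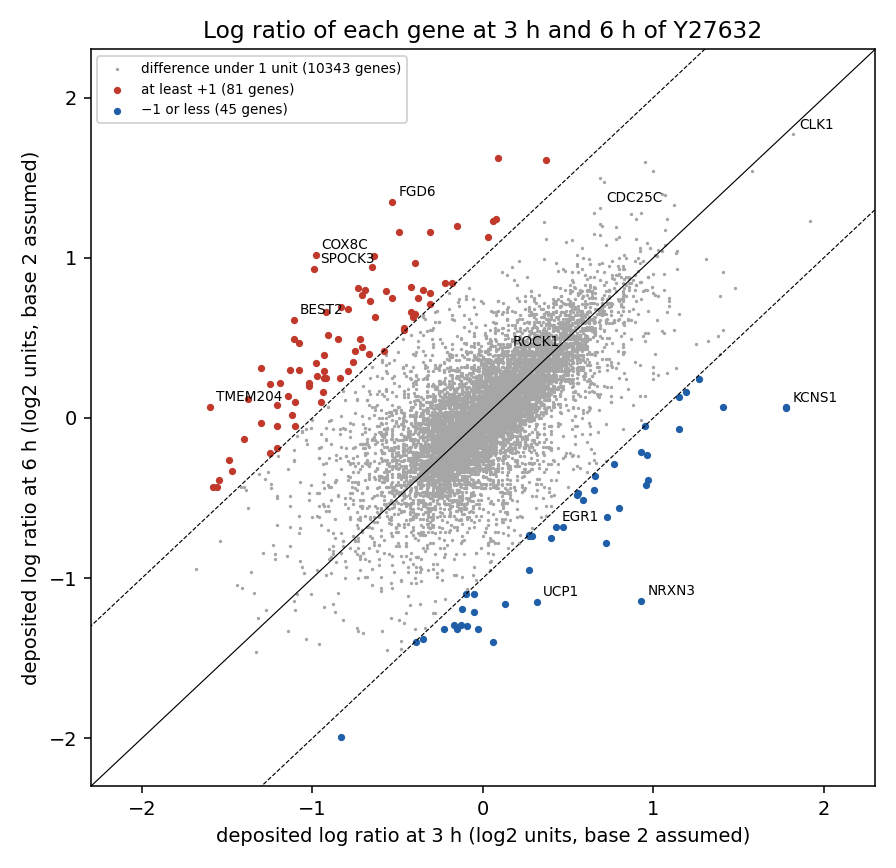
Deposited log ratio of each of 10469 genes at 3 h (horizontal) and 6 h (vertical), in log2 units with base 2 assumed. The solid line marks equal values and the dashed lines a difference of 1 unit; 81 genes lie above the upper dashed line or on it and 45 lie below the lower one or on it.

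The only error available for the difference comes from genes with several probes. Over 572 genes with 2 or more probes on both arrays, the within-gene SD between probes was 0.30 unit, as large as the SD of 0.29 over all genes. In the difference, the correlation between probes of the same gene was r = 0.022 across these 572 genes, against 0.23 in the 3 h ratio and 0.18 in the 6 h ratio. The probes of a gene share its transcript, the same RNA and the same 2 arrays, and genes are not independent replicates. Of the 496 genes with exactly 2 probes, 267 (53.8%) had both probes on the same side of 0. For a gene with 1 probe, as 9896 genes had, the error of the difference could not be measured. The pooled 0.30 unit is a guide to it, and covers the spread between probes and not between cultures. It need not hold for every gene, since some gene lists below had a smaller spread over their members.

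**Figure D2:**
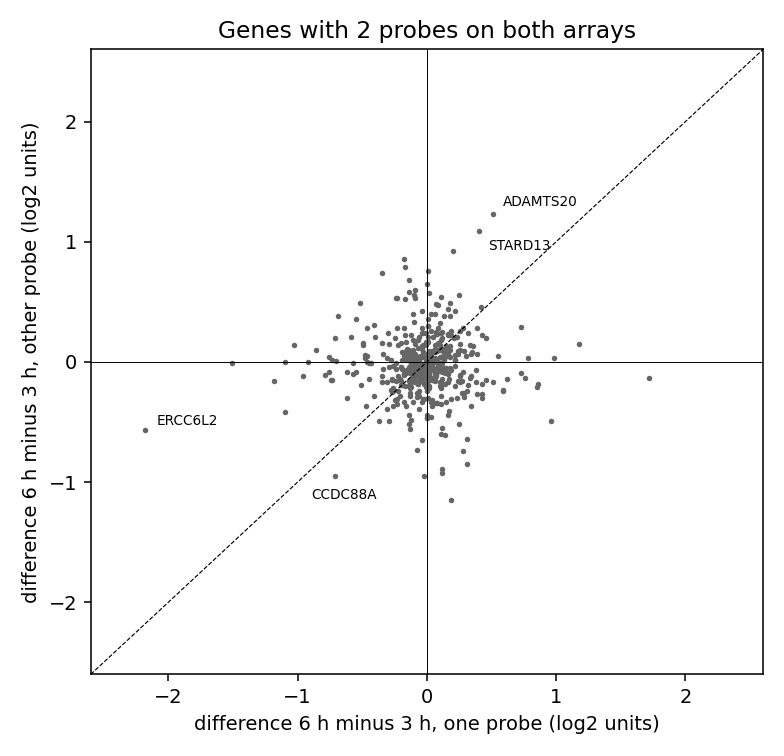
Difference between 6 h and 3 h of both probes of each of 496 genes with 2 probes on both arrays, in log2 units. Solid lines mark 0 and the dashed line equal values; the points form no band along the dashed line, and both probes lay on the same side of 0 in 267 genes.

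Single probes past 1 unit were rarely matched by another probe of their gene. Among 1238 probes of genes with several probes, 15 (1.21%) differed by at least 1 unit. The other probes of the gene all lay in the same direction in 8 of these 15 cases, and in 0 of 15 were they all past 1.5-fold in that direction. The other probes had a median of 0.12 unit in the direction of the far probe.

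Some genes did carry the same direction in every probe. CCDC88A, which encodes the actin-binding protein girdin, had differences of −0.71 and −0.95, and it was the single gene with each probe past 1.5-fold in the same direction. Its probes nonetheless had different ratios at each time, at −0.03 and 1.30 at 3 h and −0.74 and 0.35 at 6 h. ERCC6L2, a helicase-like protein of DNA repair listed under its older symbol C9orf102, had −2.18 in 1 probe and −0.57 in the other, with a mean of −1.38. It was the only gene with several probes whose mean passed 1 unit. ASCC3, a helicase subunit, had −1.10 and −0.42, and ZNF155 had −1.18 and −0.16. The probes of PRODH, proline dehydrogenase, had −1.51 and −0.01, so that 1 probe made nearly all of its mean. IGKC, an immunoglobulin light chain gene, had −0.64, −0.96 and −0.21 over 3 probes.

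On the positive side, the matrix protease gene ADAMTS20 had 1.23 and 0.51, the highest mean among these genes at 0.87. STARD13 had 0.40 and 1.09, with a mean of 0.75. The type IV collagen gene COL4A6 had 1.18 and 0.15, and DVL1, a Dishevelled protein of WNT signalling, had 0.20 and 0.92. PDZD7 had 0.73 and 0.29, and CORO6, a coronin, had 0.98 and 0.03. In each of these 6 genes the mean lay on the negative side at 3 h and nearer 0 or above it at 6 h. Choosing the highest differences favours this course.

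Of the 126 genes past 1 unit, 124 had 1 probe, and no second measurement bears on them. That is 124 of 9896 genes with 1 probe, against 1 of 572 genes with several (0.175%), whose value is a mean. The neurexin gene NRXN3 (probe opHsV0400003002), which encodes a presynaptic adhesion protein, had a ratio of 0.93 at 3 h and −1.14 at 6 h, so that it differed by −2.07. COX8C (probe opHsV0400003702), an isoform of the cytochrome c oxidase subunit VIII known from testis, had −0.98 and 1.02, which is a difference of 2 units or 4-fold. SPOCK3, a secreted proteoglycan, had −0.99 and 0.93, and FGD6 had −0.53 and 1.35. The potassium channel subunit gene KCNS1 and the butyrophilin gene BTN3A1 both had 1.78 at 3 h and 0.06 and 0.07 at 6 h.

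Choosing the highest differences favours negative ratios at 3 h and positive ratios at 6 h. The remaining genes of the 12 highest differences all had this course. They were the chloride channel gene BEST2 (−1.11 and 0.61), TMEM204 (−1.60 and 0.07), the pseudogene ZNF137P (−0.49 and 1.16) and the peptide transporter gene SLC15A3 (−0.64 and 1.01). KITLG, the ligand of the receptor KIT, had −1.30 and 0.31, CD1D, which presents lipids to T cells, had −0.65 and 0.94, ADH4, an alcohol dehydrogenase, had −0.92 and 0.66, and the olfactory receptor gene OR4D5 had −1.08 and 0.47. PKD1L2 had −1.11 and 0.49 from different probes, H300001921 at 3 h and H300002702 at 6 h, and was the only gene with no probe measured at both times.

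Among the 12 lowest differences, most ratios were positive at 3 h, which choosing the lowest differences favours. SFRP4, a secreted WNT antagonist, had 0.72 and −0.78, and UCP1, the uncoupling protein of brown fat, had 0.32 and −1.15. DSPP, a dentin matrix protein, had 0.97 and −0.39, the pseudogene KCNMB3P1 had 0.80 and −0.56, and CDAN1, a nuclear protein of erythroid development, had 0.73 and −0.62. KLHL3, a substrate adaptor of a ubiquitin ligase, had 1.41 and 0.07. The testis gene TSGA10IP and PPARD, a nuclear receptor of fatty acid metabolism, were near 0 at 3 h (0.06 and −0.03) and far below it at 6 h (−1.40 and −1.32).

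**Figure D3:**
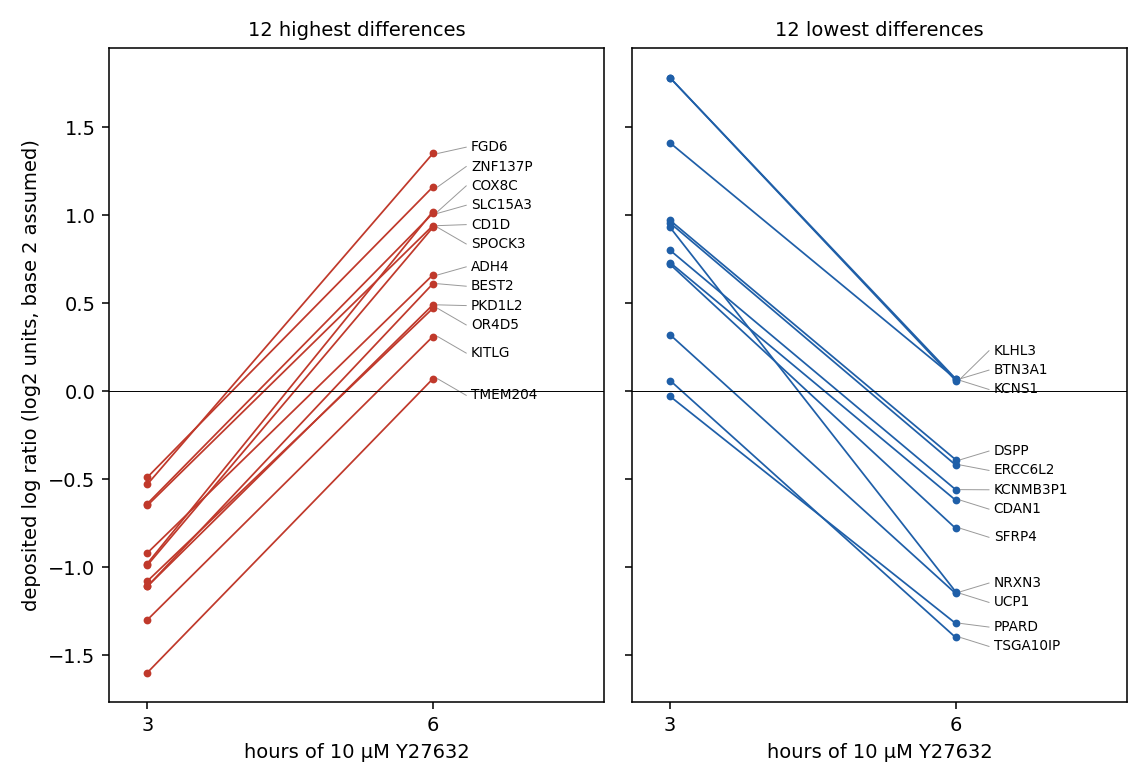
Deposited log ratio at 3 h and 6 h, in log2 units with base 2 assumed, of the 12 genes with the highest difference (left) and the 12 with the lowest (right), 1 line per gene. All 12 lines on the left start below 0; on the right 11 of 12 start above 0, the exception being PPARD at −0.03.

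Over all genes past 1 unit, the negative median ratio lay farther from 0 than the positive one, for both signs of the difference. Selecting differences of at least 1 unit by itself favours ratios on opposite sides of 0. Of the 81 genes with positive differences, 65 had a negative ratio at 3 h and a positive ratio at 6 h, and their median ratio went from −0.84 to 0.49. By themselves the 3 h ratios were at least 1 unit from 0 in 27 of these genes and the 6 h ratios in 11. Of the 45 genes with negative differences, 26 crossed from positive to negative, with medians of 0.47 at 3 h and −0.73 at 6 h. Here the 3 h ratio was past 1 unit in 7 genes and the 6 h ratio in 17. For comparison, 1.36% of all 10469 genes were past 1 unit at 3 h and 1.24% at 6 h.

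The genes were also followed through 4 courses over time. A ratio past 1 unit at 3 h and within 0.25 unit of 0 at 6 h was found for 34 genes (0.325% of all genes), with 26 positive and 8 negative differences. TMEM204, KCNS1, BTN3A1 and PDYN, the prodynorphin gene (−1.38 and 0.12), differed most among them. The opposite course, near 0 at 3 h and past 1 unit at 6 h, was found for 21 genes (0.201%), with 5 positive and 16 negative differences. Besides TSGA10IP and PPARD these included SLC17A2, a phosphate transporter gene (−0.15 and 1.20), and the zinc finger gene ZBTB34 (0.13 and −1.16). In both of these courses the sign of the difference follows from the ratio past 1 unit, which was mostly negative. Ratios of at least 0.5 unit with opposite signs were found for 22 genes (0.210%), 17 of them with a positive difference, led by NRXN3, COX8C, SPOCK3 and FGD6.

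The 28 genes (0.267% of all genes) past 1 unit on both arrays with the same sign had a median size of difference of 0.10 unit. Their range was from −0.69 to 0.54. Selecting far ratios of the same sign on both arrays favours small differences. Over all genes the 25th and 75th percentiles of the difference were −0.13 and 0.13. Both arrays may share their control RNA, so this group was read for its difference only. SERAC1, a phospholipid remodelling protein, went from 1.92 to 1.23 and EEA1, an endosome tether, from 1 to 1.54. PABPC5, a poly(A)-binding protein gene, went from −1.44 to −1.04 and ZNF135 from −1.41 to −1.06. The splicing kinase CLK1, with ratios of 1.82 and 1.77, differed by −0.05.

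A set of 52 gene lists was then described by the number of members on each side of 0 and by their median, beside the median of −0.01 over all genes. The lists held 1621 different genes, of which 1205 were measured, and 16 of these (1.33%) were past 1 unit, close to the 1.2% of all genes. In 39 of 52 lists no member was past 1 unit. The list medians lay between −0.14 and 0.20, and 43 of 52 lay within 0.10 unit of 0.

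Genes of the mitotic spindle, its motors and cytokinesis showed the most one-sided pattern among positive lists. Of 26 measured members 25 had a positive difference, against 46.9% of all genes, with a median of 0.16 and an SD of 0.11 over members, less than the SD of 0.29 over all genes. No member reached 1.5-fold. KIF18A, the kinesin that damps chromosome movement at the spindle equator, moved from 0.59 at 3 h up to 1 at 6 h, by 0.41. KIF2C, which depolymerises microtubules at centromeres, had 0.11 and 0.43. ANLN, the anillin scaffold of the contractile ring, had 0.42 and 0.73. At the low end, KIF11, the motor that separates spindle poles, had 0.20 and 0.25, BIRC5, the survivin subunit of the chromosomal passenger complex, had −0.09 and −0.07, and KIF4A, a chromosome-bound kinesin, had 0.01 and −0.11.

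The pattern held in both parts of that list, which were split after the values were seen. Of 10 kinesins 9 were positive, with a median of 0.25, and all 16 other members were positive, with a median of 0.14. Among the 16, ECT2, which acts at the cleavage furrow, had 0.45 and 0.60, its partner RACGAP1 had 0.61 and 0.77, and CIT, a kinase of cytokinesis, had −0.19 and −0.13. KIF23, the kinesin that pairs with RACGAP1, had 0.01 and 0.29. ECT2, RACGAP1, CIT and KIF23 were chosen after their values were seen.

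Promoters of these spindle genes are shown because a short element known from cell cycle promoters, the CHR with the letters TTTGAA, is frequent in them. Windows from 250 bases before to 50 bases after the first listed transcription start were taken from RefSeq (GRCh38.p14), and 8422 of 10469 measured genes (80.4%) had one. TTTGAA on either strand was found in 19 of 23 spindle genes with a window (82.6%), in 10.3% of all measured genes with a window and in 15.4% of all 27305 genes in the RefSeq table. The CCAAT box, with the letters CCAAT on either strand, was found in 18 of the 23 (78.3%), in 36.8% of measured genes and in 35.7% of the table. Overlapping matches were each counted. The motifs were chosen after the values were seen. Below are the 4 spindle genes with TTTGAA in the window and the highest differences, then KIF4A, the single member with a negative difference, with matches to both motifs in capitals. KIF18A lies at chr11:28108107-28108406 (minus strand), ANLN at chr7:36389612-36389911, KIF23 at chr15:69414099-69414398, CEP55 at chr10:93496362-93496661 and KIF4A at chrX:70289854-70290153, all 4 on the plus strand.
KIF18A: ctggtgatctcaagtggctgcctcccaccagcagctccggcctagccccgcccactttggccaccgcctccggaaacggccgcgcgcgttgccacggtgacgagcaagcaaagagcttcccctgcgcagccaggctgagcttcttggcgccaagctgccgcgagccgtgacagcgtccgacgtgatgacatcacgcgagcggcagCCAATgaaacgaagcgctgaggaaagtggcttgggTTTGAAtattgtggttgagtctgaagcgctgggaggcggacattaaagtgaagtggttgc
ANLN: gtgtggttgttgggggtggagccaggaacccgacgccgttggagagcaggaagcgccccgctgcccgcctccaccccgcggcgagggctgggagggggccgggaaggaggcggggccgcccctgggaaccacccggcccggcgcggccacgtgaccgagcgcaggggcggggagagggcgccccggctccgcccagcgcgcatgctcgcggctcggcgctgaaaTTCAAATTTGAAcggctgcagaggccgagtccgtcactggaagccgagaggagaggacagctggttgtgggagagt
KIF23: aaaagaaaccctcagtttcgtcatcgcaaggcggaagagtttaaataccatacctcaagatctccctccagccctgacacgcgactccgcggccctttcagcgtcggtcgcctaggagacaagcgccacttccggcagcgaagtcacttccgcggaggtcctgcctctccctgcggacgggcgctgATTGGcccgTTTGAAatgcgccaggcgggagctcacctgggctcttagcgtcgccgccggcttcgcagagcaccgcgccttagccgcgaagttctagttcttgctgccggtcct
CEP55: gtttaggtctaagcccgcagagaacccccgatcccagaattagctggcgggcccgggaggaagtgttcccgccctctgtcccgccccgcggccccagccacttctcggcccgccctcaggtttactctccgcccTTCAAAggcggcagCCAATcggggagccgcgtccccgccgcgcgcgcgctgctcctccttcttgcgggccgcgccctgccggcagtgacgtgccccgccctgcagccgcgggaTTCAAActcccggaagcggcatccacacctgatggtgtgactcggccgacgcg
KIF4A: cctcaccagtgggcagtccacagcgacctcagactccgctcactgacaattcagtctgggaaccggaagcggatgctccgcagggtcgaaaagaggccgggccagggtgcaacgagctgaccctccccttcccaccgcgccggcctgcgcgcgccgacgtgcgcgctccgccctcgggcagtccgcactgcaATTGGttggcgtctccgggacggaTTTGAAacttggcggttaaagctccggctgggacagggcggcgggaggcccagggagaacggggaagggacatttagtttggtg

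KIF4A, with a difference of −0.12, held 1 TTTGAA element and 1 CCAAT box, the same numbers as KIF18A with 0.41 and KIF23 with 0.28. ANLN held 2 TTTGAA elements and no CCAAT box, and CEP55, an abscission factor with −0.08 at 3 h and 0.19 at 6 h, held 2 and 1. The element did not mark positive differences in general. The 867 measured genes with TTTGAA in the window had a median difference of −0.01, as did the genes without it, and within the spindle list the 19 genes with the element had a median of 0.15 and the 4 without it 0.24. Of 19 kinetochore and checkpoint genes with a window, 9 (47.4%) held TTTGAA, and their median was 0.02 against 0.12 without it.

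Kinetochore and spindle checkpoint genes had positive differences in 16 of 22 members, with a median of 0.12 and an SD of 0.21. BUB1B, the checkpoint protein BubR1, had 0.07 and 0.56, TTK, the kinase that recruits the checkpoint, had 0.52 and 0.91, and NDC80, which binds microtubule ends, had 0.26 and 0.60. CENPC, an inner kinetochore protein, had 1.09 and 0.70, KNTC1, of the complex that recruits dynein, had 0.12 and −0.06, and PMF1 had 0.12 and 0.00. Genes of mitotic entry were less one-sided, with 11 of 17 positive and a median of 0.02. CDC25C, the phosphatase that activates CDK1, stood at their top with 0.69 at 3 h and 1.31 at 6 h. Among members chosen after their values were seen, the kinases PLK1 and PLK4 both had −0.18. Genes of the anaphase promoting complex had 7 of 12 positive and a median of 0.08, and genes of G1/S and DNA replication had 16 positive and 16 negative members of 34, with a median of 0.00.

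The opposite one-sided pattern was found for the respiratory chain and ATP synthase. Of 59 measured members 51 had a negative difference, against 51.2% of all genes, with a median of −0.08. The members lay close together, from −0.27 to 0.16 with an SD of 0.07, against 0.29 over all genes, and no member reached 1.5-fold. A split by complex, made after the values were seen, gave negative differences in 24 of 28 genes of complex I, which takes electrons from NADH, in 6 of 6 of complex III and in 9 of 10 of complex IV, the cytochrome c oxidase. For ATP synthase it was 10 of 12, and for complex II 2 of 3. Medians were −0.07, −0.08, −0.09, −0.09 and −0.01 in that order. NDUFS4, an accessory subunit of complex I, had 0.62 at 3 h and 0.35 at 6 h, and NDUFS1, its largest subunit, had 0.23 and 0.39, the lowest and highest difference of the list. COX8C, whose difference was 2, was not on the list, and COX8A, the widely expressed isoform, had −0.28 and −0.39. NDUFS4, NDUFS1 and COX8A were chosen after their values were seen.

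Mitochondrial ribosome genes had negative differences in 42 of 59 members, with a median of −0.04 and an SD of 0.09. The large subunit had 27 of 34 negative and the small subunit 15 of 25. Histone genes had 17 of 20 negative, with a median of −0.08, and all 9 measured H2B genes were negative, with a median of −0.09. Probes for histone genes, which are near-identical copies, may not tell them apart. The 3 positive members were the linker histone genes H1-1 (−0.29 and 0.29) and H1-5 (0.04 and 0.30) and the core histone gene H2AC4 (−0.22 and −0.15), chosen after their values were seen. Cytosolic ribosomal protein genes had 17 positive and 15 negative members of 32 and a median of 0.01.

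Among RNA-binding proteins of the hnRNP group and related splicing regulators, 16 of 24 were negative and the median was −0.14. With gene symbols as the platform lists them, only 10 of these members were measured and the median was −0.005. Among the 13 hnRNP genes proper, a split made after the values were seen, 11 were negative with a median of −0.19. HNRNPA1, which packages nascent transcripts and represses splice sites, had 0.23 and 0.01, and HNRNPU, a scaffold-associated member, had 0.29 and 0.07. MBNL1, a muscleblind splicing regulator, had −0.37 and −0.63. Its paralog MBNL2 had −0.39 and 0.21, the highest difference of the list at 0.60. RBM5, a splicing factor, had −0.11 and 0.32, and PTBP2, the neural polypyrimidine tract protein, had 0.80 and 1.13. The list's mean was −0.05, nearer 0 than its median.

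**Figure D4:**
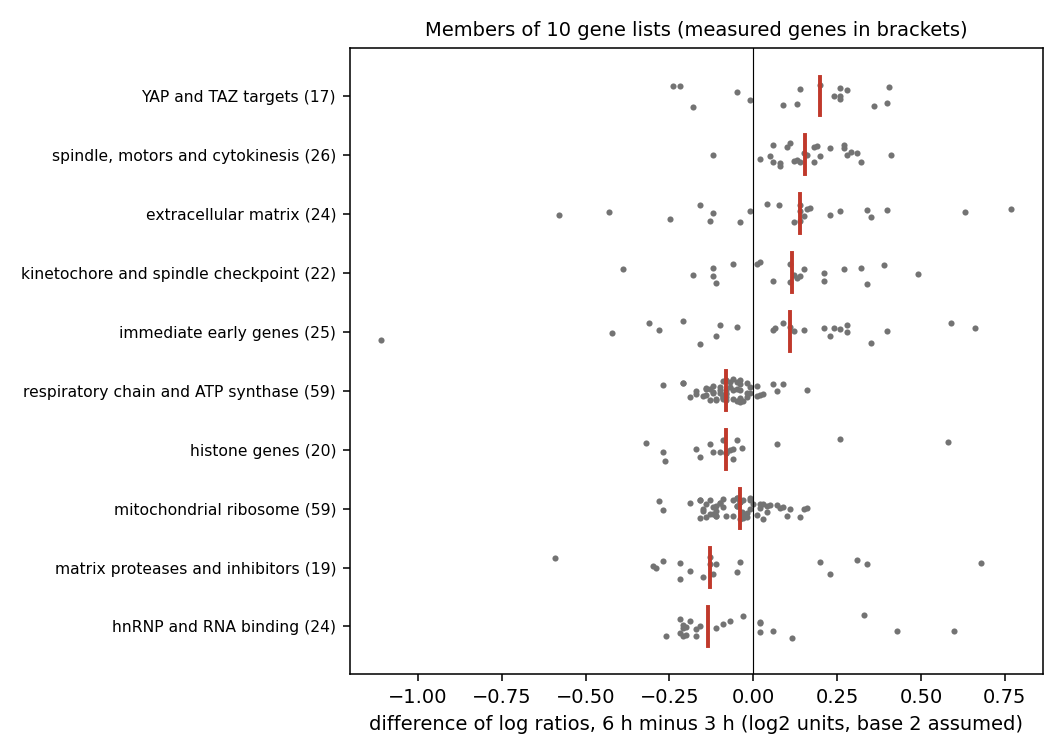
Difference between 6 h and 3 h, in log2 units with base 2 assumed, of each measured member of 10 gene lists (grey points, shifted vertically at random for visibility), with the list median as a red bar. Members of the respiratory chain list lie close together on the negative side and those of the spindle list on the positive side, while EGR1 at −1.11 stands far from the rest of its list.

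Genes next to the inhibited kinases had small differences. ROCK1 had ratios of 0.14 and 0.41, a difference of 0.27, and ROCK2 had 0.39 and 0.38, a difference of −0.01. Both lie within the pooled probe SD of 0.30. Of 22 measured genes of the ROCK pathway and its substrates, 15 were negative, with a median of −0.06. MYL9, the myosin light chain whose phosphorylation ROCK promotes, had −0.16 and −0.63. The myosin phosphatase subunit genes PPP1R12B and PPP1R12A had −0.49 and −0.24, and the 2 probes of PPP1R12B had −0.95 and −0.02. MYH10, a non-muscle myosin heavy chain, had −0.31. The myosin phosphatase and MYH10 genes were chosen after their values were seen.

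Readouts of actin-dependent transcription did not move as 1 group. The list of YAP and TAZ targets had the highest median of all lists, 0.20, with 12 of 17 positive. It also counts the 4 TEAD factors, which are partners of YAP and TAZ and not targets. Split off after the values were seen, these 4 had a median of 0.25 with 3 positive. Without them the middle member of the list was AJUBA, at 0.14, which is below the median of the spindle list. The highest rank thus depended on counting the TEAD factors. F3, tissue factor, had 0.04 and 0.45, and both of its probes were positive (0.25 and 0.56). ARHGEF17 had −0.28 and 0.12, and TEAD2, of the TEAD factors through which YAP and TAZ bind DNA, had −0.41 and −0.05. The canonical target CCN1 had 0.41 and 0.54, a difference of 0.13, while CCN2 had 0.55 and 0.31, AMOTL2, an inhibitor of YAP, had −0.44 and −0.66, and LATS2, a kinase that phosphorylates YAP, had 0.04 and −0.14. SRF and MRTF targets had 6 positive and 7 negative members of 14 and a median of −0.03, and TAGLN, a smooth muscle actin-binding protein, had −0.42 and −0.40. Genes of actin nucleation and capping had 17 of 26 negative and a median of −0.06, and integrins and focal adhesion genes had 17 of 24 positive and a median of 0.04.

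Extracellular matrix genes had positive differences in 16 of 24 members, with a median of 0.14. POSTN, the matricellular protein periostin, had 0.21 and 0.98, COL6A2 had −0.69 and −0.06, and LOXL2, a collagen crosslinking oxidase, had 0.27 and 0.67. LOX, a related oxidase, had 0.32 and −0.26, and COL6A3 had −0.14 and −0.57. COL4A3 had a difference of −0.25 that depended on 1 probe measured at 3 h only; its 2 probes with both values had −0.23 and 0.53, with a mean of 0.15. In parts of the list split after the values were seen, all 8 laminin genes were positive, with a median of 0.15 and a range from 0.04 to 0.34. Of its 7 collagen genes 3 were positive, with COL4A3 counted as negative. Other measured collagen genes, such as COL4A6, were not on the list. Matrix proteases and their inhibitors leaned the other way, with 14 of 19 negative and a median of −0.13. MMP8, a collagenase, had 0.14 and −0.45, PLAT, tissue plasminogen activator, had −0.15 and −0.45, and ADAMTS1 had −0.51 and −0.80. MMP1, another collagenase, had −0.63 and 0.05, MMP7 had −0.92 and −0.58, and ADAMTS4 had −0.18 and 0.13.

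Immediate early genes, which cells induce first after a stimulus, were positive in 16 of 25 members, with a median of 0.11 and an SD of 0.36. EGR1, a zinc finger factor, was the only member past 1 unit, with 0.43 at 3 h against −0.68 at 6 h and so −1.11 between them. FOSB had −0.06 and −0.48 and JUND −0.33 and −0.64, both AP-1 subunits. FOS (−0.87 and −0.75), JUN (−0.91 and −0.70) and MYC (−0.60 and −0.37) had negative ratios at both times that were nearer 0 at 6 h. They differed by 0.12, 0.21 and 0.23, each within the pooled probe SD of 0.30. KLF4 had −0.07 and 0.59, NR4A3, an orphan nuclear receptor, −0.55 and 0.04, and the antiproliferative gene BTG2 −0.21 and 0.19. The 7 JUN and FOS family genes together had 3 positive and 4 negative members.

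The other list members past 1 unit are given here, chosen after their values were seen. PRPF8, the core splicing protein, had −0.98 and 0.34, while 18 of 26 core spliceosome genes were negative with a median of −0.08. The lipoprotein receptor gene VLDLR had −0.79 and 0.29, the clock repressor BHLHE41 −0.13 and −1.29, and the interferon-induced gene IFIT3 −0.10 and −1.10. In the WNT list the transcription factor gene TCF7L2 had 0.59 and −0.51 and was past 1 unit together with SFRP4. IRF5, an interferon regulatory factor of blood cells, had −0.83 and −1.99, and TGM3, an epidermal transglutaminase, had −0.15 and −1.32. Among 37 potassium channel subunits 3 were past 1 unit, where 1.2% of all genes were. KCNS1 had a negative difference, and KCNK5 (−1.30 and −0.03) and KCNC1 (−0.93 and 0.25) had a positive one. That list's median was 0.01, with 19 positive and 18 negative members and an SD of 0.54.

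Marker lists of kidney epithelium and of other cell types mostly had wide spreads, with medians from −0.11 to 0.05. Medians were 0.05 for 14 kidney epithelial genes, −0.07 for 10 endothelial, −0.11 for 14 blood cell, −0.10 for 14 liver, −0.07 for 10 testis, −0.06 for 15 muscle, 0.01 for 20 synapse and neuron and −0.02 for 19 keratin and epidermis genes. Of these 8 lists, 6 had an SD over members above the 0.29 of all genes, the exceptions being the liver and muscle lists at 0.23 and 0.27. The 123 measured olfactory receptor genes, a family known for expression in sensory neurons of the nose, were picked out after the values were seen. Their median was 0.00 and their SD 0.45. Past 1 unit were 4.88% of them, against 1.2% of all genes, with 5 on the positive side and 1 on the negative side. OR4D5 had the highest difference at 1.55 and OR51S1 the lowest at −1.15.

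The spread of the difference went with the CpG content of the promoter. Genes were divided into 5 equal groups by the ratio of observed to expected CG dinucleotides in the RefSeq window, a division made after the values were seen. The SD of the difference was 0.37 in the lowest group and 0.28, 0.25, 0.25 and 0.25 in the others, while the medians lay between −0.02 and 0.00. Differences past 1 unit were found in 2.26% of genes in the lowest group and in 0.594% to 1.19% of genes in the other groups. Of 96 genes past 1 unit with a window, 38 (39.6%) lay in the lowest group, which holds 20% of genes, as did 8 of the 15 most extreme named genes with a window. By contrast, 2 of 48 respiratory chain genes and 0 of 23 spindle genes lay there.

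**Figure D5:**
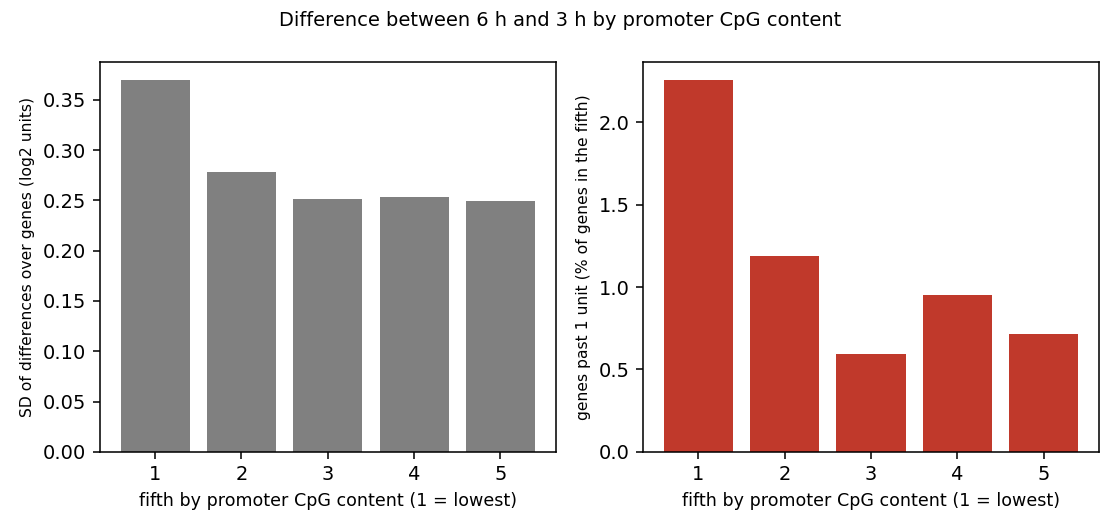
SD of the difference between 6 h and 3 h in log2 units (left) and percent of genes with a difference of at least 1 unit (right), in 5 equal groups of 8422 genes ordered by promoter CpG content from lowest (1) to highest (5). The lowest group has the tallest bar in both panels, at 0.37 and 2.26%.

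Missing values moved with the same property. In the lowest group 34.9% of probes had no value on at least 1 array, against 16.3%, 8.55%, 7.63% and 5.75% in the others. These shares also count probes of genes without a value on both arrays, which are not among the 8422 genes grouped above. Probes of the same gene also differed more in the lowest group, with a within-gene SD of 0.35 over 95 genes, against 0.26 to 0.30 in the other groups. No spot brightness was used here, and the part of missing or dim spots in the spread was not tested. As examples of the range, the windows of OR4D5 (chr11:123939367-123939666) and CD1D (chr1:158179697-158179996) had the lowest CpG content among the 15 of the 24 most extreme genes that had a window. That of COX4I1 (chr16:85799445-85799744), a cytochrome c oxidase subunit with 0.33 at 3 h and 0.16 at 6 h, had the most CG among the 5 lowest respiratory chain genes with a window, a choice made after the sequences were seen. All 3 are on the plus strand of GRCh38.p14, from RefSeq, with each CG in capitals.
OR4D5: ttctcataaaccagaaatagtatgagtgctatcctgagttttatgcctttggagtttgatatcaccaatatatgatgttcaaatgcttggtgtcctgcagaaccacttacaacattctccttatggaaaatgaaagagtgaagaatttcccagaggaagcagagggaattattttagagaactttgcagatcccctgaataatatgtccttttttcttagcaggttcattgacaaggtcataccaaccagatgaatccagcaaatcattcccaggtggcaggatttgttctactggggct
CD1D: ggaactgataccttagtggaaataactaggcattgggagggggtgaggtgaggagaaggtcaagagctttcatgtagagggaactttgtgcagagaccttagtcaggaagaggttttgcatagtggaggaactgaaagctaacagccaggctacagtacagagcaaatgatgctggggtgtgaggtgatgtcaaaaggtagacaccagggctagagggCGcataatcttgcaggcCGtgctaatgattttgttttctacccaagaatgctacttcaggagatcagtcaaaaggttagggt
COX4I1: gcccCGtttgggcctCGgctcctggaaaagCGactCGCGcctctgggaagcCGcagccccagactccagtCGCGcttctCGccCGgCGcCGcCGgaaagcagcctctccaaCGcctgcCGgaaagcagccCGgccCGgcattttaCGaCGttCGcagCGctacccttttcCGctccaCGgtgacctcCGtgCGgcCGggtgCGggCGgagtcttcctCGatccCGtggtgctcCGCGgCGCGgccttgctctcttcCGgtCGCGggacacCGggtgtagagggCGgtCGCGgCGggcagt

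OR4D5 held 0 CG dinucleotides, CD1D held 2 and COX4I1 held 42. Their differences were 1.55, 1.59 and −0.17. Of 7 motifs written out, all but the CCAAT box divided genes by spread and hardly by median. Genes with the CCAAT box had an SD of 0.28 against 0.29 without it. For TTTGAA it was 0.33 against 0.28, and 2 further motifs are given as examples. Genes with the ETS site CCGGAAG on either strand (15.9% of measured genes with a window, 10.7% of the RefSeq table) had an SD of 0.22 against 0.29 without it. Genes with the TATA box TATAAA (7.79%, and 12% of the table) had 0.33 against 0.28. Medians were −0.01 with and without the ETS site, and −0.03 with the TATA box against −0.01 without it. No overlap between the motifs was removed. CCGGAAG itself contains CG, while TTTGAA and TATAAA do not, and the motif splits were not separated from the CpG content above.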

How the data were processed

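The authors deposited 1 log ratio per probe and array, for 24267 probes. The deposited values are read as log2 ratios of the 2 channels, an assumption from their spread, and natural logarithms remain possible. The sources used here do not give background correction, normalization, spot filter or numerator. Values were present for 20503 probes at 3 h, 20337 at 6 h and 19781 at both. By the platform annotation, 13395 probes carry 1 symbol, 10872 carry none and 0 carry several. RefSeq (GRCh38.p14) lists 10822 of these symbols as current; a unique synonym replaced 2446, and 127 stayed unmatched. A gene's ratio was the mean over its probes at each time, and the difference was 6 h minus 3 h.

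With 1 array per time no test was possible, and precision is limited by the number of arrays. The size for a count was 1 unit. Lists were described by counts and medians. The members, lists, sizes and naming rule were chosen with earlier results of these data known.

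Named genes, leaving out placeholder symbols, were the 12 highest and 12 lowest differences and the 6 highest and 6 lowest of genes whose probes all lay in the same direction. They also included the 4 largest in each of 4 courses, the 3 highest and 3 lowest members of the 8 lists (at least 8 measured members) with medians farthest from 0, and 12 genes by name. Other named genes are said to be chosen after their values were seen. Members of 1 of the 8 lists and some related lists are not reported here.

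The splits of lists, the promoter measures and the motifs were also chosen after values were seen, and more motifs were looked at than are given. Alternatives were other summaries over probes, centring, quantile normalization, scaling between arrays, symbols as listed, log base and size. The code was tested on simulated data. Python 3.11.15 with pandas 2.3.3, numpy 2.4.6 and matplotlib 3.10.9 was used.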

Additional observations from a re-analysis of the deposited data

Results flagged for a closer look

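Listed here are named genes past 1 unit in the difference whose ratios lay on different sides of 0 at the 2 times. The difference was not tested, as each time has 1 array, and the count follows largely from naming the largest differences. There were 24 such genes, and 91 among all 126 genes past 1 unit. Negative differences were −2.07 for NRXN3, −1.5 for SFRP4, −1.47 for UCP1, −1.46 for TSGA10IP, −1.38 for ERCC6L2, −1.36 for both DSPP and KCNMB3P1, −1.35 for CDAN1, −1.29 for ZBTB34 and −1.11 for EGR1. Positive differences were 1.92 for SPOCK3, 2 for COX8C, 1.88 for FGD6, 1.67 for TMEM204, 1.72 for BEST2, 1.65 for both ZNF137P and SLC15A3, and 1.61 for KITLG. They were 1.60 for PKD1L2, 1.59 for CD1D, 1.58 for ADH4, 1.55 for OR4D5, 1.5 for PDYN and 1.35 for SLC17A2. In 5 of the 24 genes 1 of the ratios lay within 0.25 unit of 0, namely TSGA10IP (0.06), SLC17A2 (−0.15) and ZBTB34 (0.13) at 3 h and TMEM204 (0.07) and PDYN (0.12) at 6 h.

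Probes without a gene symbol, which enter no value above, were past 1 unit in 144 of 8647 cases (1.67%), 86 positive and 58 negative, against 139 of 11134 named probes (1.248%).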

How the results depend on the processing

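The 81 positive and 45 negative genes past 1 unit stayed within 1.5 times these counts under every other summary over probes, centring, scaling, quantile normalization and symbol setting tried. They became 231 and 185 if the values are natural logarithms, and 319 and 283 at a size of 1.5-fold. The SD over genes was 0.29 and became 0.303 with the probe farthest from 0, 0.296 with genes of 1 probe, 0.290 with the 6 h array scaled to the SD of the 3 h array and 0.422 with natural logarithms. The median of −0.01 became 0 with centred arrays and −0.014 with natural logarithms. Of 414 list medians under 8 alternatives, 1 moved by more than 0.30 over the square root of its number of members: the hnRNP list had −0.005 with symbols as listed, where 10 in place of 24 members were measured. The SRF and MRTF list changed sign, from −0.03 to 0.03, with genes of 1 probe. Of 759 values of 99 named genes, 12 moved by more than 0.30 and 0 past 1 unit changed sign. Among the alternatives, the use of probes with both values only was chosen after the data were seen; it turned COL4A3 from −0.25 to 0.15 and left out PKD1L2. No paired analysis was possible because each time has 1 array. The number of arrays and the absence of spot brightness limit every value.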
